A study of Homo sapiens with 24 samples.

Results

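The transcriptome of cells labelled SH-SY5Y, a human neuroblastoma line, was compared between 3 libraries in which CasRx was aimed at the circular RNA ciRS-7 by a plasmid-encoded mature guide (KD) and 3 libraries with a non-targeting control guide (NTC). These 6 of the 24 libraries of the series were taken by their labels, gRNA_CDR1as_KD and gRNA_none_targeting_control, and by no measured value. Cells of both groups received a plasmid that encodes CasRx fused to GFP together with a plasmid that expresses the guide, so the nuclease and the transfection were common to KD and NTC. The plasmids were delivered by lipofection, RNA was harvested 48 h after transfection, and poly(A) RNA was sequenced without strand information as read pairs of 100 nt. The series poses the question of whether depletion by each of 4 approaches has wider effects on messenger RNA. The labels give no clone, no sort for transfected cells and no statement that the 3 libraries of a group came from separate cultures, so p-values measure the spread between these libraries, which may be technical.

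CasRx is a Cas13d enzyme, an RNA-guided nuclease that cuts RNA and leaves DNA intact, and a mature guide already has the processed form that the enzyme otherwise makes from a precursor. ciRS-7, also called CDR1as, is a circular RNA made by back-splicing of an exon antisense to CDR1, and it is abundant in brain. It holds many sites for the microRNA miR-7, a small RNA that guides Argonaute proteins to messenger RNAs that match its seed. The linear transcript LINC00632 runs through the locus on the same strand as the circle.

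The seed and its matches are shown because the miR-7 target groups below rest on them. In the mature microRNA, bases 2 to 8 form the seed, here in capitals (RefSeq).
hsa-miR-7-5p: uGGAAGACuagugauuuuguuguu
A target that pairs with the seed carries GTCTTCC on its own strand, and the stronger class, which contains the first, carries GTCTTCCA. The LINC00632-206 transcript of GENCODE 29 is 1878 nt long and holds 67 of the 7-base matches, of which 59 extend to 8 bases. A pair of its stretches, starting at bases 108 and 1005 of the transcript, is printed with the matches in capitals.
LINC00632-206 from base 108: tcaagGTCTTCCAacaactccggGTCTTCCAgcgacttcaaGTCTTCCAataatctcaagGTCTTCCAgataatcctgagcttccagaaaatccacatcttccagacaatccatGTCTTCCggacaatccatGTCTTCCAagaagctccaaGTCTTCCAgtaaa
LINC00632-206 from base 1005: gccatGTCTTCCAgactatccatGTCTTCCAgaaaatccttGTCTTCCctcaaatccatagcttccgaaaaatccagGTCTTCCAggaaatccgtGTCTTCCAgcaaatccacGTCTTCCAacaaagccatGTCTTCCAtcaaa
Single matches of the same letters in the 3′ UTRs of known miR-7 targets are shown for 3 genes whose values are given below, again with the match in capitals. Among 19393 genes with a 3′ UTR, 804 held an 8-base match and a further 1739 held a 7-base match only.
EGFR site: acaagccacaaGTCTTCCAgaggatgcttg
IRS2 site: tatcttgctctGTCTTCCActgtacacgct
PARP1 site: tgggcacttttGTCTTCCAaattaaaactc

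Depth was close to even, with 13226742 to 14554087 counts per library and 17533 to 18534 genes at 10 counts or more. Each library has a letter, A, B or C, in the name of its column, and KD and NTC libraries of the same letter deviated together from their group means across 13871 genes, with r of 0.84 for A, 0.42 for B and 0.92 for C. KD A stood apart: its log2 levels correlated with the other 5 libraries at r between 0.782 (NTC C) and 0.957 (NTC A), whereas KD B and NTC B reached 0.993 and KD C and NTC C reached 0.995. Markers of the labelled cell type were partly absent. Of 12 noradrenergic neuroblastoma genes, 5 had at least 10 counts in 3 of the libraries, and their summed level over the list was 48.3 to 73.6 CPM (counts scaled to a common library total) in KD and 49.5 to 68.3 in NTC. STMN2 and TH, a neuronal microtubule regulator and the first enzyme of dopamine synthesis, had 0 or 1 count in every library, while GATA2 and ISL1, transcription factors of the sympathetic lineage, had 368 to 625 and 106 to 159. All 10 genes of a kidney-lineage list were present, at 390 to 503 summed CPM in KD and 448 to 560 in NTC, and 8 of 10 mesenchymal genes were present at 939 to 1316 and 1107 to 1340. What these levels mean for the identity of the cells was not tested.

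The targeted locus was measured first. LINC00632 (hg19 chromosome X, 139791932 to 139854844, plus strand) had 18, 50 and 59 counts in KD A, B and C and 46, 58 and 54 in NTC. Only KD A lay below the NTC range, and the groups overlapped. CDR1, a protein-coding gene of the minus strand (139864570 to 139867036), had 0, 8 and 18 counts in KD and 3, 10 and 20 in NTC. CDR1-AS, annotated on the plus strand within it (139865341 to 139866825), had 0, 5 and 15 in KD and 3, 9 and 12 in NTC. In CDR1 and CDR1-AS the order A, B, C was the same in KD as in NTC, and within each group the letters differed by more than the groups did. In bulk RNA, fewer cells that express a gene and less RNA per cell cannot be told apart.

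For LINC00632 the DESeq2 log2 fold change of KD against NTC was -0.24 (SE 0.49, adjusted p = 1.00) and the exact two-sided permutation p of its CPM was 0.6. The CPM of CDR1 and of CDR1-AS gave exact permutation p-values of 0.7 each. With 3 against 3 libraries this test cannot go below 0.1. Without KD A the log2 fold change of LINC00632 was 0.11 and that of CDR1 was 0.25, where NTC A was kept. With both libraries of pair A left out of the DESeq2 block fit the values were -0.04 and -0.23. CDR1 was lower in KD within all 3 letters, at log2 ratios of -2.61, -0.29 and -0.19 on few counts. Poly(A) selection does not select circles, and reads of CDR1 and CDR1-AS cannot be told apart without strand, so these counts do not measure the depletion of ciRS-7.

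**Figure D1:**
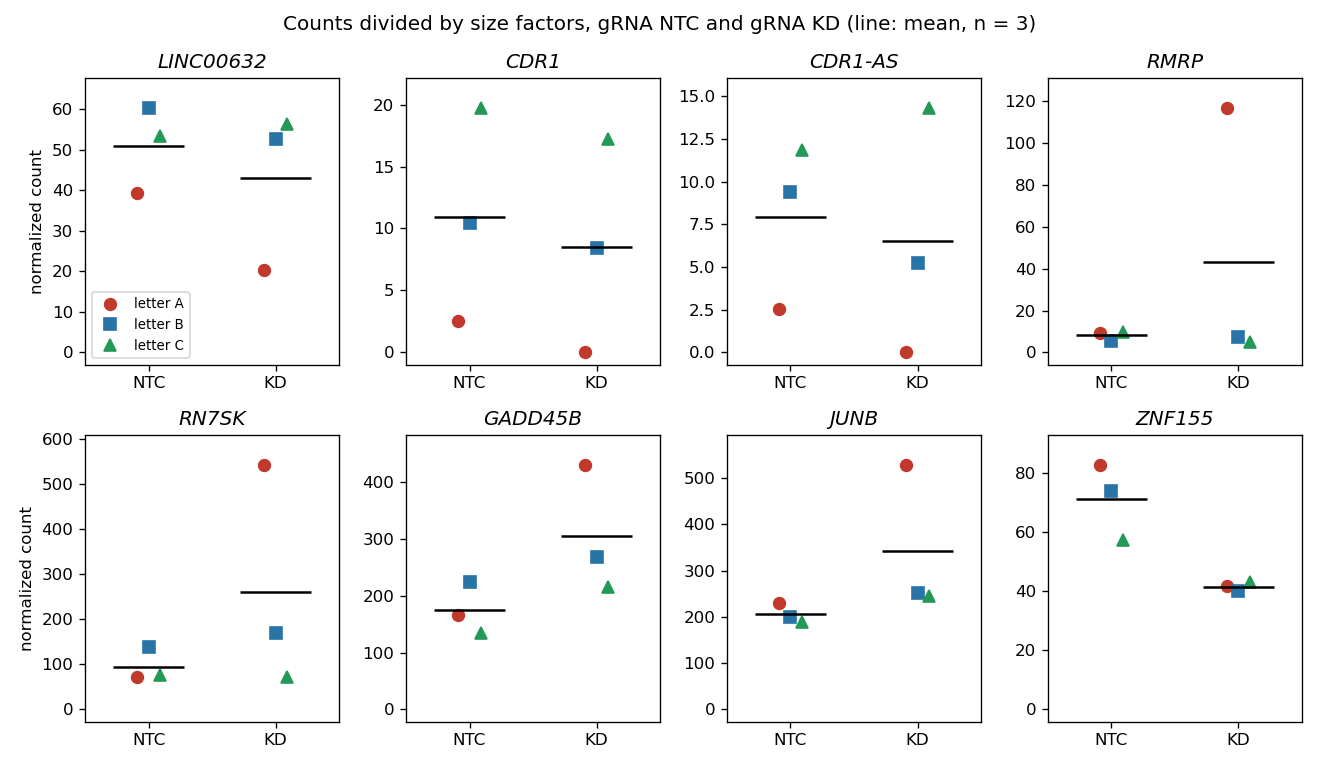
Counts divided by size factors (y axis) in the 3 NTC and 3 KD libraries (points, shaped by letter) for the 3 genes of the locus and 5 genes described in the text, with the group mean as a line. KD A is the high point for RMRP and RN7SK, and for ZNF155 all 3 KD libraries lie below all 3 NTC libraries.

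Across the transcriptome no gene differed between KD and NTC after correction. Of 18371 genes with at least 10 counts in 3 of the 6 libraries, 0 (0%) had a Benjamini-Hochberg adjusted p below 0.05 in DESeq2. At an unadjusted p below 0.05 there were 17 genes (0.0925%), 12 higher and 5 lower in KD. edgeR also called 0 genes and had 34 at an unadjusted p below 0.05. The median log2 fold change was 0.02 and the median SE was 0.43. Among 13871 genes that averaged 50 counts or more, 3 had a log2 fold change beyond 1 in either direction.

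Adding the letter as a block lowered the median SE to 0.24. DESeq2 with the block still called 0 genes (0%), with 113 (0.615%) at an unadjusted p below 0.05, 55 of them higher and 58 lower in KD. edgeR's quasi-likelihood test with the block called 3 gene entries (0.0163%), RMRP and RN7SK under 2 identifiers with identical counts, each higher in KD at an adjusted p of 0.0189. KD was above NTC in all 3 letter pairs for 2065 genes (11.2%) and below it in all 3 for 1984 (10.8%). Every KD library lay above every NTC library for 150 genes (0.817%) and below for 220 (1.2%). These shares are the background against which the groups below are read.

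RMRP and RN7SK are short non-coding RNAs made by RNA polymerase III. RMRP is the RNA of the RNase MRP complex, which processes ribosomal RNA, and RN7SK holds the elongation factor P-TEFb in an inactive complex. RMRP (hg19 chromosome 9, 35657748 to 35658015, minus strand) had 104, 7 and 5 counts in KD A, B and C and 11, 5 and 10 in NTC. RN7SK (chromosome 6, 52860418 to 52860748, plus strand) had 482, 161 and 75 counts in KD and 83, 133 and 76 in NTC. For both genes KD A was far above every other library, and the KD libraries B and C lay near the NTC libraries.

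As log2 ratios of KD over NTC within a letter, taken on counts divided by size factors with 0.5 added, RMRP stood at 3.57 in A, 0.46 in B and -0.98 in C. RN7SK stood at 2.93, 0.29 and -0.07. DESeq2 gave 2.39 (SE 0.95) for RMRP and 1.46 (SE 0.64) for RN7SK, each with an adjusted p of 1.00. The log2 fold change of RN7SK in the edgeR block fit was 1.06, and it was 0.16 with pair A left out. The edgeR block fit called the same 3 entries without pair B and none without pair A or pair C, and RMRP did not pass the count filter in the last 2 of these fits. Both RNAs lack the poly(A) tail of a messenger RNA, and the part of the poly(A) selection in these levels was not tested.

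The genes that ranked first with KD above NTC were taken among those that averaged 50 counts or more and had the same direction in all 3 pairs. None of the 10 passed correction. Their log2 fold changes ran from 0.59 to 1.09 at unadjusted p of 0.0491 to 0.123 in DESeq2. GADD45B, a stress-induced regulator of MAP kinase signalling (chromosome 19, 2476120 to 2478257), had normalized counts of 431, 268 and 216 in KD and 166, 225 and 135 in NTC. KD C lay below NTC B, so its groups overlapped. Its log2 fold change was 0.80 (SE 0.41, unadjusted p = 0.0491) and its log2 ratios were 1.38, 0.25 and 0.67 in A, B and C.

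JUNB, an AP-1 transcription factor (chromosome 19, 12902310 to 12904129), had 529, 252 and 245 normalized counts in KD and 229, 200 and 190 in NTC. All 3 KD libraries lay above all 3 NTC libraries, with KD A highest. The log2 fold change was 0.73 (SE 0.41, unadjusted p = 0.0761). SERTAD1, a regulator of CDK4 and E2F activity, had 204, 74.7 and 42.0 normalized counts in KD and 63.2, 63.5 and 33.6 in NTC, a log2 fold change of 1.00 (SE 0.58). MMP2, a gelatinase that cleaves the extracellular matrix, had 113, 72.6 and 63.0 in KD and 55.5, 52.0 and 48.4 in NTC, which did not overlap. IER5L stood at 277, 121 and 77.3 in KD and 118, 86.4 and 63.2 in NTC. Without KD A the log2 fold change was 0.14 for SERTAD1, 0.28 for JUNB, 0.39 for MMP2, 0.47 for GADD45B and 0.16 for IER5L, where it was 0.83 with all 6 libraries.

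Also among the 10 were the microRNA gene MIR3648 and the non-coding genes RP6-206I17.1, CTD-2270P14.5 and RP4-738P15.6. In 9 of the 10 the largest log2 ratio was that of pair A. In 4 of the 10 the groups did not overlap, where 0.817% of all genes had every KD library above every NTC library. The choice by p and direction favours such separation. The median GC content of the 10 was 59.2%, against 49.0% over all genes tested. With the letter block 9 of the 10 had an unadjusted p below 0.05, where 0.615% of all genes did. The choice by direction in every pair favours this.

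Among the 10 that ranked first with KD below NTC, none passed correction. By name 6 are zinc-finger (ZNF) or SCAN-domain (ZSCAN) genes, of which ZNF767 is annotated as a transcribed unprocessed pseudogene. The share of such names over all genes tested was not computed, so the count cannot show whether they were in excess. Their log2 fold changes ran from -0.79 to -0.44 at unadjusted p of 0.0424 to 0.144. ZNF155 (chromosome 19, 44472014 to 44502477) had 37, 38 and 45 raw counts in KD and 97, 71 and 58 in NTC. The KD libraries lay close together and below every NTC library, and the log2 fold change was -0.78 (SE 0.39, unadjusted p = 0.0424). ZNF473, which takes part in the processing of histone mRNA ends, had normalized counts of 165, 292 and 362 in KD and 427, 371 and 434 in NTC, with log2 ratios of -1.37, -0.34 and -0.26.

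SMG8, a subunit of the kinase complex of nonsense-mediated decay (chromosome 17, 57286761 to 57292608), had 160, 142 and 211 raw counts in KD and 376, 229 and 244 in NTC. Its groups did not overlap, and the log2 fold change was -0.59 (SE 0.34, unadjusted p = 0.0793). RFWD3, a ubiquitin ligase that acts at stalled replication forks, had normalized counts of 645, 1180 and 1275 in KD and 1994, 1362 and 1415 in NTC. Its log2 ratio was -1.63 in A and -0.21 and -0.15 in B and C. Without KD A the log2 fold change of RFWD3 was -0.36, where it was -0.62 with all 6 libraries, and that of ZNF473 was -0.32, where it was -0.59. ZNF773, ZNF200 and ZNF767 also had every KD library below every NTC library, whereas ZSCAN32, HIST1H4H and RP13-638C3.4 overlapped. In 7 of the 10 the groups did not overlap, where 1.2% of all genes had every KD library below every NTC library. The choice by p and direction favours such separation. In 7 of the 10 the largest ratio was that of pair A. The median GC content of these 10 was 47.2%.

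**Figure D2:**
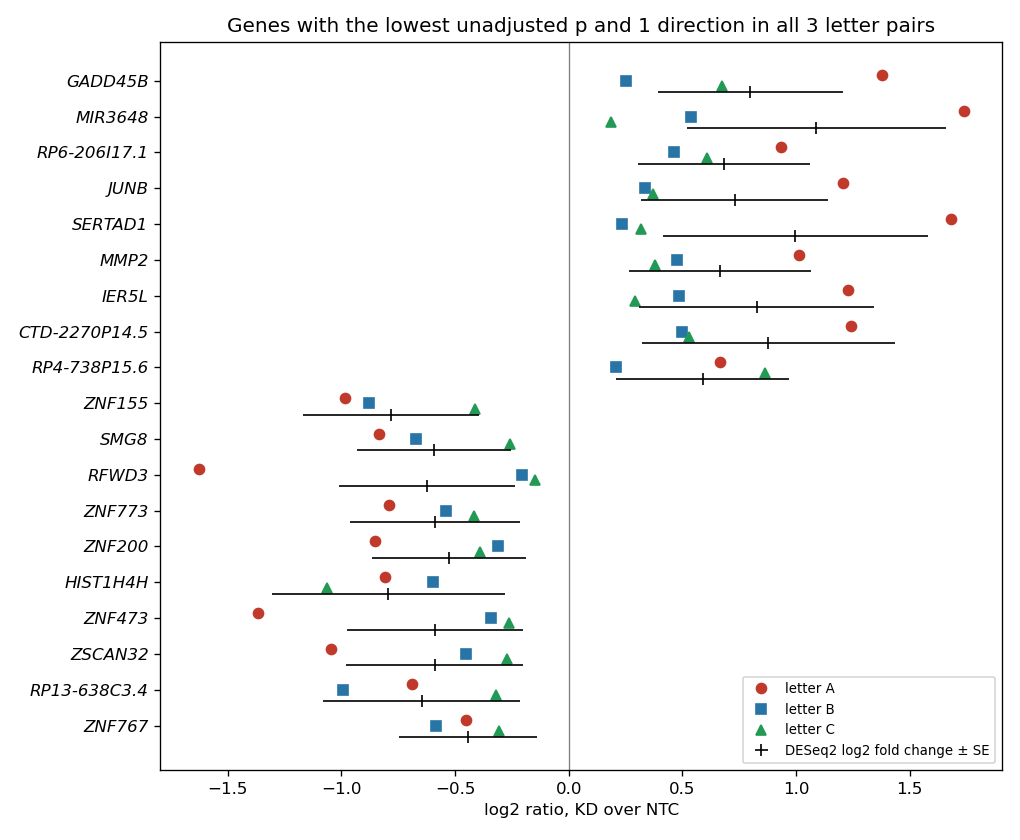
Log2 ratio of KD over NTC (x axis) within letters A, B and C (points) for 9 of the 10 genes ranked first with KD higher and the 10 ranked first with KD lower, with the DESeq2 log2 fold change and its SE as a bar. Every point lies on the side of 0 by which the genes were chosen, and in most of the higher genes the point of letter A is the farthest from 0.

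The miR-7 network was examined as the set of genes nearest to ciRS-7. OIP5-AS1, a long non-coding RNA that also binds miR-7 in its mouse form Cyrano, had 674, 1777 and 2302 normalized counts in KD and 957, 1508 and 2286 in NTC, a log2 fold change of 0.00092 (SE 0.51). HNRNPK, whose pre-mRNA is a source of miR-7, had 8135, 10735 and 10230 in KD and 10548, 10068 and 10527 in NTC, a log2 fold change of -0.10 (SE 0.30). Neither gene separated KD from NTC.

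Of 26 known miR-7 targets all 26 were tested, and 0 had an unadjusted p below 0.05 in DESeq2 with or without the letter block. KD was above NTC for 11 of them. The median log2 fold change was -0.03, against 0.02 over all genes tested. By letter the median log2 ratio of the targets was -0.21, 0.01 and -0.01 in A, B and C, and that of all genes was 0.09, -0.0027 and -0.02. PARP1 and VDAC1 were above NTC in all 3 pairs and KMT5A was below in all 3, which is 2 and 1 of 26 beside the backgrounds of 11.2% and 10.8%.

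Growth factor signalling supplies several of these targets. EGFR, a receptor tyrosine kinase, had 205, 216 and 325 normalized counts in KD and 295, 206 and 325 in NTC, a log2 fold change of -0.15 (SE 0.37). The insulin receptor substrate IRS2 had 86.6, 99.9 and 197 in KD and 197, 118 and 183 in NTC, a log2 fold change of -0.38 (SE 0.44). In both genes the groups overlapped. The DNA repair enzyme gene PARP1, the most abundant target, had 20387, 17257 and 15717 in KD and 20186, 17186 and 15608 in NTC. Its log2 ratios were 0.01 in each of the 3 pairs, within which KD and NTC were almost equal.

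The wider set of genes with seed matches was read beside its GC content. The 624 tested genes with an 8-base match had a median log2 fold change of -0.03, the 1379 with a 7-base match only had 0.01, and the 11460 with a 3′ UTR and no match had 0.03. Their median GC contents were 46.4%, 49.2% and 49.0%. The 13711 genes that averaged 50 counts or more and had a GC value were also split into 5 bins of equal size by GC content. In the lowest bin the medians were -0.05 for the 8-base class and -0.03 for genes without a match, and in the highest bin they were 0.23 and 0.24. In the bins between, from low to high GC, they were -0.12 and -0.10, -0.10 and -0.05, and 0.14 and 0.16. The 8-base median was thus the lower in each bin. Over all tested genes the 8-base class also had longer 3′ UTRs, at a median of 3270.5 nt against 1438.5 nt without a match. No difference between these classes was tested, and genes are not replicates.

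Genes for microRNA processing and silencing had lower RNA values in KD in most members, and again in pair A above all. Of 14 genes 0 had an unadjusted p below 0.05, 4 were above NTC, and the median log2 fold change was -0.16. By pair the median was -0.64, -0.03 and -0.03, and with pair A left out of the DESeq2 block fit it was -0.02, where that of all genes was 0.02, and without KD A alone it was 0.03. AGO2, the slicing Argonaute, had 739, 1293 and 1513 normalized counts in KD and 1315, 1325 and 1567 in NTC, a log2 fold change of -0.25 (SE 0.37). XPO5, which exports microRNA precursors from the nucleus, had 1314, 1699 and 1685 in KD and 2081, 1790 and 1742 in NTC, a log2 fold change of -0.26 (SE 0.30). For XPO5 every KD library lay below every NTC library, as in 1.2% of all genes. TARBP2, a partner of Dicer, went the other way at 0.33 (SE 0.41).

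Immediate early genes, which are transcribed within minutes of a stimulus, had a median log2 fold change of 0.22 over 15 tested members, 12 of them above NTC. KD exceeded NTC in all 3 pairs for 7 of the 15 and was below it in all 3 for none, beside the backgrounds of 11.2% and 10.8%. None had an unadjusted p below 0.05 in DESeq2. With the letter block JUNB, KLF2 and FOSB did (0.00797, 0.0308 and 0.0487), where 0.615% of all genes did. FOS, a partner of JUN in AP-1, had 152, 166 and 85.9 normalized counts in KD and 102, 121 and 73.1 in NTC, with log2 ratios of 0.58, 0.46 and 0.23. JUN itself had 15137, 10457 and 16216 in KD and 12216, 12185 and 16086 in NTC, with ratios of 0.31, -0.22 and 0.01. KLF6 went the other way, at ratios of -0.996, 0.05 and -0.03. The median GC content of the list was 56.7%. With an offset for GC content in the DESeq2 fit its median was 0.08, and with pair A left out of the block fit it was 0.07.

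Heat shock genes, which encode chaperones, had a median of 0.19 over 13 tested members. Of these 9 were above NTC and 5 above it in all 3 pairs, where all genes gave 54.2% and 11.2%. The pair medians were 0.40, 0.10 and 0.0039, and the median was -0.02 without KD A and 0.09 with pair A left out of the block fit. HSPA1A, an inducible HSP70, had 1315, 324 and 215 normalized counts in KD and 764, 277 and 172 in NTC. Letter A was highest in both groups, and KD was above NTC within each letter at log2 ratios of 0.78, 0.23 and 0.32. Its log2 fold change of 0.61 (SE 0.69) became -0.57 without KD A and was 0.30 with pair A left out of the block fit. HSPB1, a small heat shock protein, had 2236, 1251 and 877 in KD and 1169, 1223 and 696 in NTC, with ratios of 0.94, 0.03 and 0.33. The constitutive HSPA8 had ratios of -0.70, 0.10 and 0.0039. HSPA1A and HSPB1 had unadjusted p of 0.0312 and 0.0421 with the letter block and 0.378 and 0.26 without it. With the block 0.615% of all genes had an unadjusted p below 0.05.

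Other stress responses had medians closer to 0. The integrated stress response, led by the transcription factor ATF4, had a median of -0.03 over 15 genes, with 6 above NTC, and 5 (33.3%) were below it in all 3 pairs, where all genes gave 10.8%. ATF4 itself stood at 0.14 (SE 0.33). Targets of p53 had a median of -0.05 over 15 genes, with 6 above NTC and 3 below it in all 3 pairs. TP53INP1, an inducer of autophagy and cell death, had an unadjusted p of 0.0318 with the block, at log2 ratios of -1.10, -0.13 and -0.52. Of 26 genes of RNA sensing and the interferon response, 13 were tested and 5 were above NTC, with a median of -0.04. IFNB1, the interferon beta gene, had 0 counts in every library. ADAR, which edits double-stranded RNA, had 2474, 3621 and 3591 normalized counts in KD and 3936, 3685 and 3713 in NTC. It was the only tested gene of that list with every KD library below every NTC library, as in 1.2% of all genes. Its log2 ratios were -0.67 in A and -0.03 and -0.05 in B and C.

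Genes of energy metabolism and translation lay above NTC in most members, by little outside pair A. Of all genes tested 54.2% were above NTC, and 11.2% were above it in all 3 pairs. Of 18 glycolysis genes 16 were above NTC, 9 of them in all 3 pairs, and the median log2 fold change was 0.28. GAPDH had 103861, 87702 and 51438 normalized counts in KD and 63212, 82290 and 49664 in NTC, a log2 fold change of 0.32 (SE 0.39). ENO1, an enolase, had 64364, 35661 and 25610 in KD and 37618, 34683 and 24808 in NTC, a log2 fold change of 0.37 (SE 0.42). In both genes the spread between letters within KD exceeded the difference between the group means. Of 82 cytosolic ribosomal protein genes 78 were above NTC, 45 of them in all 3 pairs, at a median of 0.20. Nuclear genes of the respiratory chain gave 71 of 76, with 40 in all 3 pairs, at a median of 0.24, and mitochondrial ribosome genes gave 62 of 76, with 17 in all 3 pairs, at 0.16.

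By letter, the ribosomal protein median was 0.52 in A, 0.04 in B and 0.07 in C, that of the respiratory chain 0.53, 0.04 and 0.06, that of glycolysis 0.64, 0.06 and 0.05, and that of the mitochondrial ribosome 0.36, 0.0046 and 0.02. With pair A left out of the DESeq2 block fit the medians were 0.09, 0.08, 0.08 and 0.03 in the same order, and without KD A alone in the unblocked fit they were 0.07, 0.03, -0.03 and -0.03. With the GC offset they were 0.25, 0.24, 0.15 and 0.13. No member of these lists had an adjusted p below 0.05 in DESeq2, and FAU, a ribosomal protein of the small subunit, was the only one of them below 0.05 unadjusted with the block (0.0491, log2 ratios 0.92, 0.14 and 0.16). The 13 messenger RNAs encoded by mitochondrial DNA behaved differently between letters. Their median log2 ratio was 0.46 in A, -0.15 in B and -0.17 in C, and 0 of 13 had the same direction in all 3 pairs. The median log2 fold change was 0.07, and 0.32 with the GC offset.

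Zinc-finger genes of chromosome 19, many of which encode KRAB repressors of transposable elements, lay on the other side. Of 195 tested genes 61 were above NTC, and KD was below NTC in all 3 pairs for 46 (23.6%) and above in all 3 for 8 (4.10%), where all genes gave 10.8% and 11.2%. Every KD library lay below every NTC library for 9 of them (4.62%, against 1.2% of all genes). The median log2 fold change was -0.14, with pair medians of -0.34, -0.04 and -0.09. ZNF155 alone had an unadjusted p below 0.05 in DESeq2, and ZNF266 and ZNF473 joined it with the block. Over all genes these shares were 0.0925% without the block and 0.615% with it. ZNF266 had 97.9, 250.3 and 350.4 normalized counts in KD and 293.7, 273.7 and 397.9 in NTC. The list's median GC content was 42.4%. With the GC offset the median was -0.06, where that of all genes was 0.0084, with pair A left out of the block fit it was -0.02, and without KD A alone it was 0.06.

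**Figure D3:**
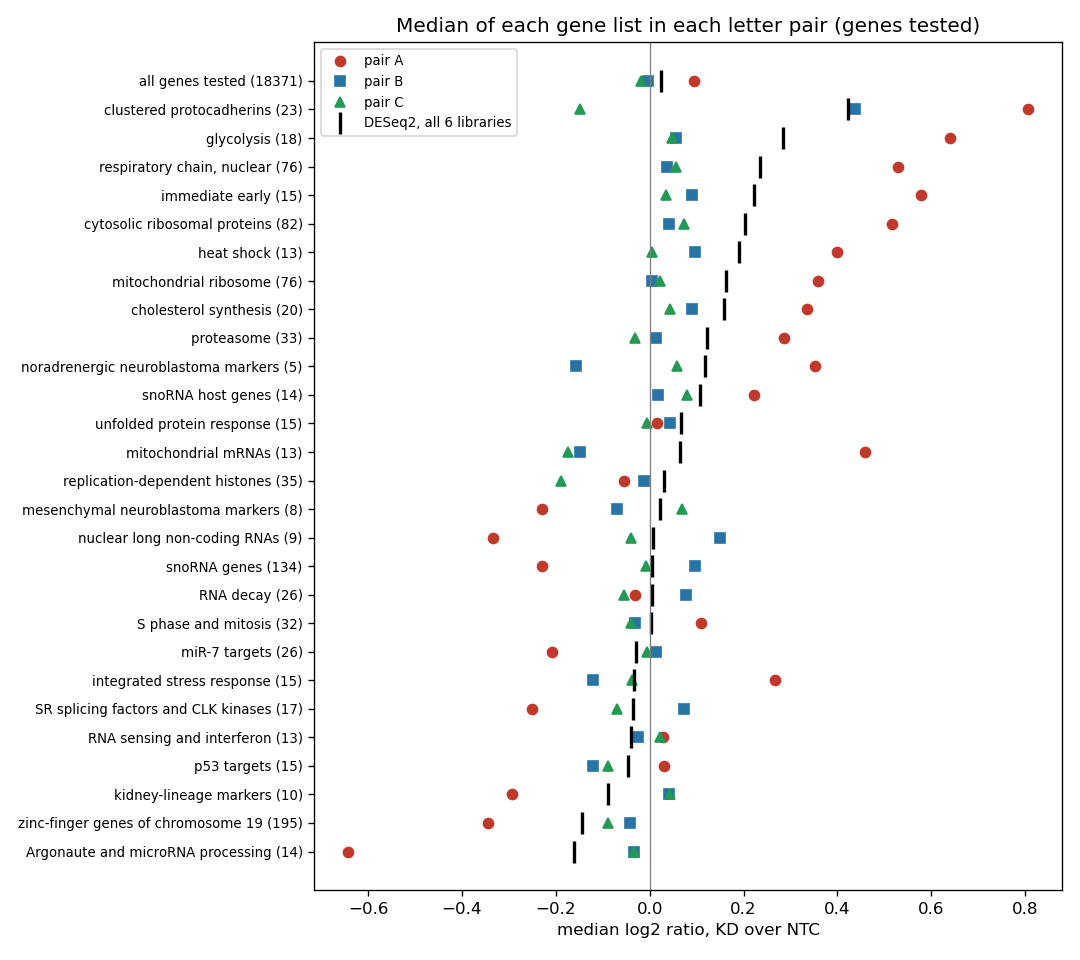
Median log2 ratio of KD over NTC (x axis) within letter pairs A, B and C (points) and in the DESeq2 fit of all 6 libraries (vertical marks), for the gene lists other than the miR-7 network, with the number of genes tested. Pair A spans the widest range, from -0.64 for microRNA processing to 0.81 for the clustered protocadherins, and the pairs B and C lie closer to 0 in most lists.

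The letter pairs differed in size and in their relation to base composition. Over genes that averaged 50 counts or more the log2 ratio of KD over NTC had an SD of 0.56 in A, 0.21 in B and 0.16 in C, and 644, 6 and 1 of the 13871 genes were beyond a 2-fold difference. Across genes the ratios of different pairs were weakly related, with r of -0.17 between A and B, 0.20 between A and C and -0.12 between B and C. Direction was shared by 39.1%, 59.8% and 42.7% of the genes. Genes are not independent replicates, and no p-value was computed for these values.

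With GC content of the transcript the log2 ratio had a rank correlation of 0.60 in A, -0.50 in B and 0.40 in C, and with transcript length -0.34, 0.07 and -0.12. From the lowest to the highest of the 5 GC bins the median ratio ran from -0.14 to 0.59 in A, from 0.18 to -0.09 in B and from -0.11 to 0.05 in C. In A the rise was not steady, and the median was lowest in the second bin, at -0.40. In the fit of all 6 libraries the share of genes above NTC was 36.8% in the lowest bin, 25.9% in the second and 92.7% in the highest. Scaling by total counts in place of size factors would lower every ratio of pair A by 0.28, and would move pairs B and C by -0.03 and 0.02. What the letters stand for and the RNA quality of each library are not given in the sources used here, and their part in these patterns was not tested.

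**Figure D4:**
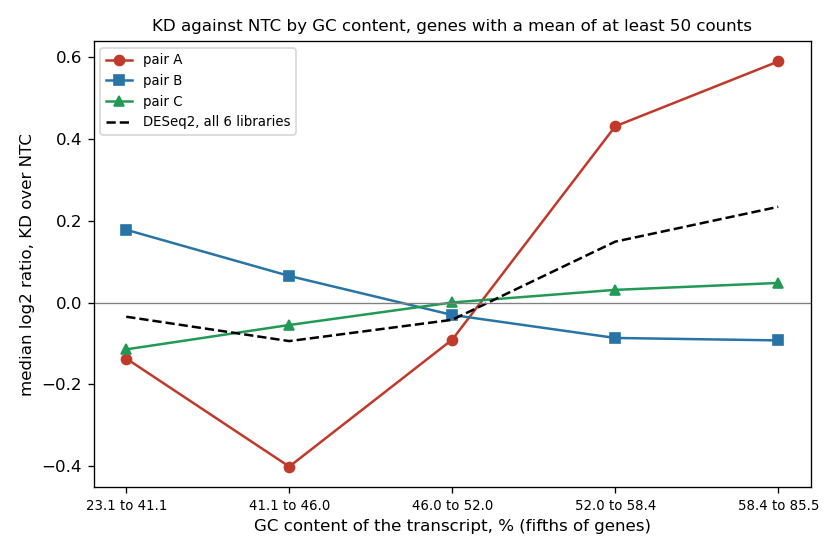
Median log2 ratio of KD over NTC (y axis) in 5 equal bins of genes by GC content of the transcript (x axis, in percent), within letter pairs A, B and C and in the DESeq2 fit of all 6 libraries. The slope of pair A is upward beyond the second bin, that of pair C is upward and smaller, and that of pair B is downward.

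Finally, the effect of the mature guide was set against the mean effect of the other 3 setups, an Argonaute-processed hairpin, a precursor guide and a synthetic guide, each with its own NTC. In a DESeq2 model of all 24 libraries 0 of 20172 genes (0%) differed at an adjusted p below 0.05, and 42 (0.208%) had an unadjusted p below 0.05. edgeR called 0 as well, with 67 at an unadjusted p below 0.05. With a block for the letter within each setup DESeq2 called 0, with 635 unadjusted. No gene was thereby shown to respond to the mature guide differently from the other approaches at this depth and spread.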

How the data were processed

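Poly(A) RNA was sequenced from 6 libraries, 3 of the CDR1as guide and 3 of the non-targeting guide, and 18 libraries of the other setups entered only the last comparison. Per the submitters' processing notes, reads were trimmed with Trim Galore, aligned to hg19 with STAR 2.7.3a and counted with featureCounts. The annotation release and counting settings are not given in the sources used here. The deposited values are raw counts per gene, beside log2 fold changes and p-values that the authors made with DESeq2. The 24 columns of normalized counts in the deposited table were not used.

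The counts were tested with DESeq2 1.42.0 (Wald test, R 4.3.3) on genes with at least 10 counts in 3 or more libraries, at a Benjamini-Hochberg adjusted p below 0.05. Alternatives were edgeR 4.0.16, limma 3.58.1 (voom), other filters and scalings, a GC offset, the letter as a block, and each library or pair left out. Letter ratios used counts divided by size factors plus 0.5. The letters come from the column names, with no link to the replicate numbers of the labels. They were taken to pair the libraries because same-letter deviations correlated at 0.84, 0.42 and 0.92. Gene type, GC content and 3′ UTRs came from GENCODE 29 (GRCh38), which matched 93.2% of 60658 genes, and gene coordinates are hg19. Single-gene permutation tests used SciPy 1.17.1. DESeq2 with and without the letter, edgeR without it and limma-voom were tested on simulated data that held no letter or GC effect. The GC offset and the edgeR block fit were not tested in this way.

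Named genes were the 3 locus genes, any gene called with or without the block, the 10 ranked first in each direction, and in each list the 2 most abundant members and those with an unadjusted p below 0.05. The remaining genes in the text were picked with their values in view. The comparison and the lists were chosen with earlier results of these data known. Of the 10 genes ranked higher, 1 is not reported here.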

Additional observations from a re-analysis of the deposited data

How the results depend on the processing

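No gene was called by DESeq2 under any filter, scaling or left-out library tried. Neither edgeR without the block nor limma-voom called a gene, and these were fitted to KD against NTC only with the main filter and all 6 libraries. The exception was edgeR with the letter as a replicate block, which called 3 entries, and 3 again with pair B left out, a fit chosen after seeing the data. It called 0 with pair A or pair C left out. The block changed no other call. Genes at an unadjusted p below 0.05 numbered 17 in the DESeq2 fit reported, 29 without a filter on low counts, 4 with an average of 50 counts or more, 39 with limma-voom, 39 with the GC offset and 56 in a fit of all 24 libraries. They numbered 113 in DESeq2 and 730 in edgeR with the block, and 7 to 125 with 1 library left out. Without KD A the log2 fold changes of HSPA1A, LINC00632 and CDR1 reversed, to -0.57, 0.11 and 0.25, and with both libraries of pair A left out of the DESeq2 block fit none of the 3 did (0.30, -0.04 and -0.23). With each library left out in turn they ran from -0.57 to 1.46, from -0.49 to 0.11 and from -0.80 to 0.25. Of 644 list medians under alternatives, 576 moved by less than the spread between pairs and 68 by more, and the cause was not tested. Pair A widens that spread, so the count of 576 does not show that medians kept their size or direction. Without KD A the median of glycolysis went from 0.28 to -0.03 and that of cytosolic ribosomal proteins from 0.20 to 0.07. The difference from the other 3 setups gave 0 genes in every fit. Low counts limit what the locus genes can show.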

Other observations

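Histone genes had values in both directions. Of 87 replication-dependent histone genes 35 were tested, 19 of them above NTC, with a median log2 fold change of 0.03 and pair medians of -0.05, -0.01 and -0.19. KD was below NTC in all 3 pairs for 10 (28.6%) and above for 5 (14.3%), where all genes gave 10.8% and 11.2%, and every KD library lay below every NTC library for 2 (5.71%, against 1.2%). HIST1H3A, which encodes a histone H3, had 24, 14 and 13 raw counts in KD A, B and C and 8, 9 and 3 in NTC. Every KD library lay above every NTC library, at a log2 fold change of 1.49 (SE 0.66, unadjusted p = 0.0245, adjusted p = 1.00 in DESeq2). HIST1H3E went the other way without overlap, with normalized counts of 30.4, 18.9 and 20.1 in KD and 54.6, 35.4 and 36.5 in NTC, and its log2 ratios of -0.84, -0.89 and -0.85 were alike in the 3 pairs. HIST1H4H had ratios of -0.81, -0.60 and -1.06. Most histone mRNAs lack a poly(A) tail, and the part of the selection step in these values was not tested.

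Clustered protocadherins, neuronal adhesion proteins made from tandem promoters, were above NTC for 23 of 23 tested genes, where all genes gave 54.2%. Their median was 0.42. The pair medians were 0.81, 0.44 and -0.15, and 1 of 23 had the same direction in all 3 pairs. The median was -0.04 without KD A, 0.16 with pair A left out of the block fit and 0.23 with the GC offset, and the list's median GC content was 55.2%. Most are gamma-cluster genes that share exons and hence reads, so they are not separate measurements. PCDHGA1 had 76.5, 33.6 and 39.1 normalized counts in KD and 43.5, 23.9 and 43.4 in NTC.

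A list of RNA polymerase III transcripts was drawn up after RMRP and RN7SK were seen, and it holds both. RN7SK enters it under 2 identifiers with identical counts, so that the 9 tested entries, 7 of them above NTC, count it more than once, as do the pair medians of 0.72, 0.21 and -0.37. BCYRN1, a neuronal non-coding RNA, had log2 ratios of 1.07 in A, 0.00 in B and -0.11 in C. RN7SL1, the RNA of the signal recognition particle, had 0.72, 0.32 and -0.56.

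MALAT1, a nuclear long non-coding RNA, separated the letters and not the guides, with 1598, 9897 and 6838 normalized counts in KD and 1505, 8021 and 7478 in NTC. Among genes that averaged 50 counts or more, split by gene type, a pair of the types was picked for its shares. KD was above NTC in all 3 pairs for 31 of 108 processed pseudogenes (28.7%), and below in all 3 for 35 of 137 transcribed unprocessed pseudogenes (25.5%), where all such genes with a GC value gave 10.4% in each direction. Pseudogenes share reads with their parent genes, so these counts are uncertain. In the authors' deposited table, 133 of 43760 genes with a p-value were below 0.05 (0.304%) and the lowest adjusted p was 1. That table gave LINC00632 a log2 fold change of -0.35.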
